A study of Homo sapiens with 6 samples.

Results

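Glycolysis and hypoxia genes were followed as a set of 38 named genes out of 19755 rows of the protein-coding gene table, found by their gene symbols. They comprised 4 transporters, 17 enzymes from hexokinase to lactate dehydrogenase, 3 enzymes that switch flux, 6 genes of the hypoxia-inducible factors (HIF) and their sensors, and 8 other hypoxia genes. All 38 were found, and 37 reached the minimum mean of 0.5 FPKM (fragments scaled to the length of the transcript and to all mapped fragments of the library) used for testing.

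RNA-seq was run on 3 libraries from cells treated with LPS (lipopolysaccharide, a glycolipid of the Gram-negative outer membrane) for 12 h at 1000 ng/ml and on 3 control libraries labelled with the same time. The series compared LPS-treated with control cells as a culture model of sepsis. The cell line was given as EA.hy926, an established hybrid made by fusing an umbilical vein endothelial cell with the lung carcinoma line A549, while the titles also named umbilical vein endothelial cells (HUVEC). In all groups the cells were kept in DMEM with 10% fetal bovine serum, and total RNA was extracted. The genotype field read LPS-induced for the treated and WT for the control libraries, the treatment field read Sepsis for all 6, and groups were therefore taken from the titles. Nothing in the labels says that the replicates were separate cultures, and the spread behind each p-value may therefore be technical.

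Glycolysis converts glucose to pyruvate, which lactate dehydrogenase reduces to lactate for export when it is not burned in mitochondria. Endothelial cells draw most of their ATP from it even with oxygen present. When oxygen falls, the prolyl hydroxylases that mark HIF alpha subunits for destruction by VHL lose activity, and the stabilised subunits pair with ARNT and bind the core motif ACGTG or GCGTG near glucose transporter, glycolytic and other hypoxia genes. HIF1A protein is controlled mainly after translation, so its mRNA level alone does not give HIF activity.

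The promoters of a classical HIF target that was barely expressed here, of an abundant lactate-forming enzyme and of the member with the largest positive change are shown first, 5′ to 3′, from RefSeq on GRCh38.p14. CA9 lies at chr9:35673678-35673977 on the plus strand, LDHA at chr11:18394313-18394612 on the plus strand and P4HA2 at chr5:132227042-132227341 on the minus strand. Each window runs from 250 bases before to 50 bases after an annotated start, and capitals mark ACGTG or GCGTG on either strand.
CA9: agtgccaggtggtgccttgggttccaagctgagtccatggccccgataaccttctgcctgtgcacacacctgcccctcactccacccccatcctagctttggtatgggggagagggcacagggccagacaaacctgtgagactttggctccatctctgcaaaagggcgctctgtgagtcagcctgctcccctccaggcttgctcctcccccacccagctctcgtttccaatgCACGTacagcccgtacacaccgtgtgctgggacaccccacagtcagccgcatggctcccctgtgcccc
LDHA: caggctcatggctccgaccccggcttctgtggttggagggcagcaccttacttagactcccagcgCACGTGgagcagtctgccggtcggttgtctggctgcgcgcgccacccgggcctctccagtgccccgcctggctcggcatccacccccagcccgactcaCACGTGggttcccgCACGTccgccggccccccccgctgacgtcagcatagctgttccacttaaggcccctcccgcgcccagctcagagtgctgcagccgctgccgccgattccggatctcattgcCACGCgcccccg
P4HA2: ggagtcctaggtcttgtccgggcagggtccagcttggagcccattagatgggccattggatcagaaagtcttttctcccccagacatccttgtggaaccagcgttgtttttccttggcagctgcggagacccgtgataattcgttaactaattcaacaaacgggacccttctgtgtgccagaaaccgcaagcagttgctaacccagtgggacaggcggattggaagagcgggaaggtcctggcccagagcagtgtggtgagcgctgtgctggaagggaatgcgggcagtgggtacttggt
The CA9 window held 1 match, beginning at position −18 from the start. The LDHA window, the first of 2 that RefSeq lists, held 4, beginning at positions −185, −87, −73 and 39. Of these the first and second were CACGTG, which contains ACGTG on both strands, was counted once and is also the E-box bound by MYC-type factors. The P4HA2 window held none, which says only that these letters are not in this window.

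RefSeq windows were found for 33 of the 38 members, all except SLC2A3, SLC16A1, VHL, BNIP3L and NDRG1. On either strand, ACGTG occurred in 37.7% of the 61 member windows, 25.4% of the 14109 windows of tested protein-coding genes and 21.4% of all 35116 windows. GCGTG occurred in 39.3% of member windows, 48.6% of windows of tested genes and 36.5% of all windows. Either motif occurred in 65.6% of member windows, 60.8% of windows of tested genes and 48.4% of all windows. At least 1 window with ACGTG was present for 19 of the 33 members (57.6%), against 32.8% of tested genes. Among these members were CA9, LDHA, PGK1, GAPDH, ALDOA, HK2 and BNIP3. A gene with more windows has more places for a match, and the 14109 windows of tested genes belonged to 9563 genes. These shares describe sequence and were not set against the LPS response.

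A second set of sequences is shown because pyruvate kinase isoforms are separated below. PKM makes the M1 or the M2 enzyme by using 1 of 2 mutually exclusive exons of 167 bases each on the minus strand of chromosome 15. The M1 exon lies at chr15:72203022-72203188 and the M2 exon at chr15:72202454-72202620 on GRCh38, both read 5′ to 3′ from GENCODE 29 transcripts, with the 62 positions that differ in capitals.
PKM1 exon: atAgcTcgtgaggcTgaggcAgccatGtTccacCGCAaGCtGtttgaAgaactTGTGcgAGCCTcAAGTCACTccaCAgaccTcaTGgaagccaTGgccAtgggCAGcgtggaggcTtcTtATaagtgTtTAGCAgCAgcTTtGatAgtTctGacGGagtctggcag
PKM2 exon: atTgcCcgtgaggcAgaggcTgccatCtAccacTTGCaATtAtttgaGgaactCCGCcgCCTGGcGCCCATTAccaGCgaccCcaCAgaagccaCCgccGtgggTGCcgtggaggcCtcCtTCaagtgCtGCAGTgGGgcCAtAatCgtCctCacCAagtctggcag
The exons shared 105 of 167 bases (62.87%). They mark which transcripts were counted as M1 or M2.

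The members were tested gene by gene, and the set as a whole was described by counts and its median without a test of its own. Of the 37 tested members, 0 passed an adjusted p of 0.05 in limma (moderated linear model on log2(FPKM + 0.5), Benjamini-Hochberg adjustment over all tested protein-coding genes), beside 7 of 12068 genes (0.058%). At an unadjusted p under 0.05 there were 4 members (10.8%), against 10.4% of all tested genes, so the members' share lay near the background. The 4 were P4HA2, higher in the LPS libraries (as were 5.13% of all tested genes), and SLC2A3, SLC16A1 and PKM, lower (5.26%). The 3 LPS and 3 control values did not overlap for 5 members (13.5%), against 17.4% of all tested genes. These were P4HA2 on the high side (8.68% of all tested genes) and SLC2A3, SLC16A1, PFKM and LDHB on the low side (8.73%).

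The median log2 change (LPS over control) of the tested members was −0.03, beside −0.01 over all tested genes, with 17 members above 0 (47.8% of all tested genes) and 20 below. Single changes ran from −0.49 for PKM to 0.27 for P4HA2. The 95% interval of 35 of the 37 members lay within a 2-fold change either way, as did that of 90.0% of tested genes. The exceptions were PDK1 (−1.004 to 0.53) and ANKRD37 (−1.003 to 0.30), both of low abundance. A p above the threshold does not show equal levels, and changes inside those intervals are not addressed by it.

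**Figure D1:**
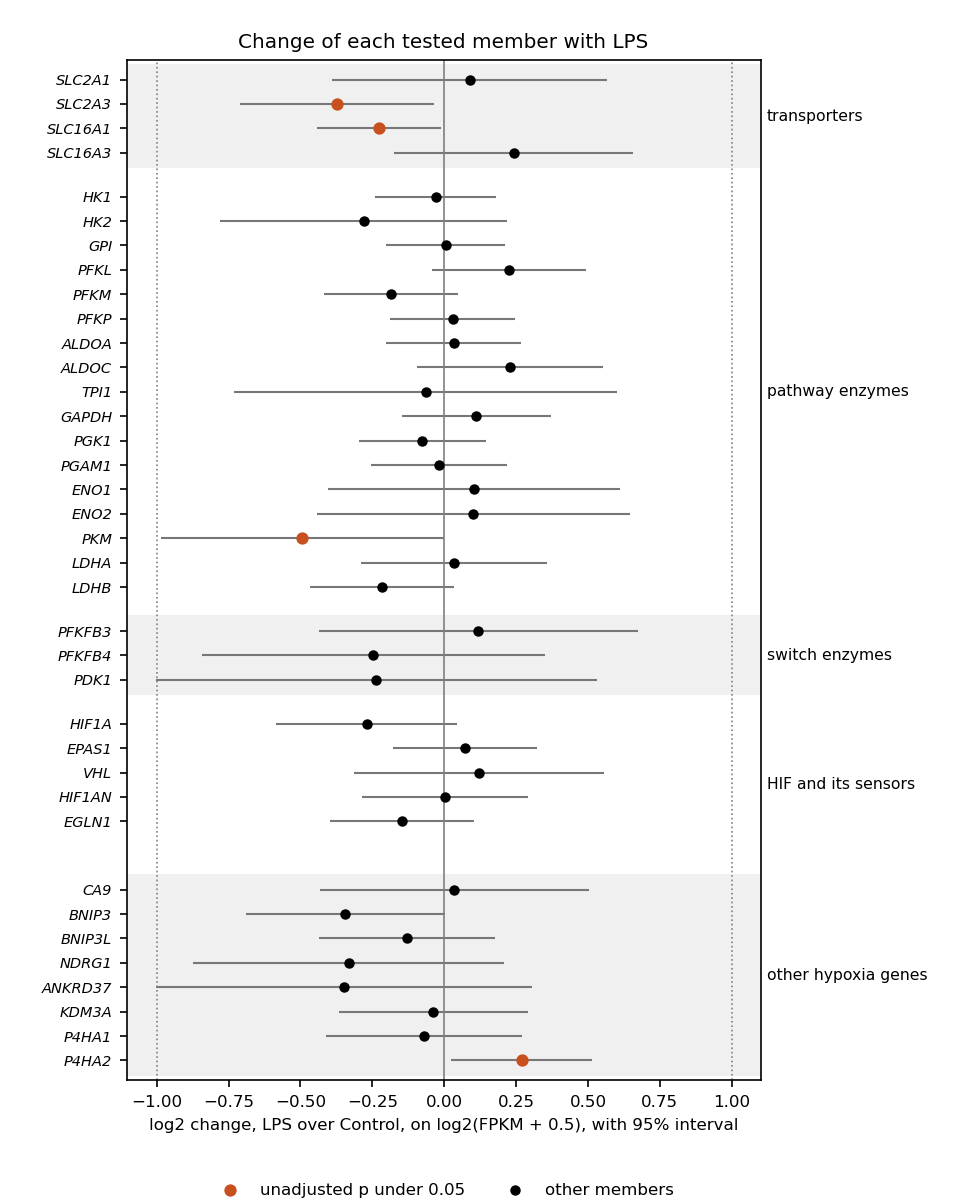
Log2 change with 95% interval (x axis, LPS over control, on log2(FPKM + 0.5)) of the 37 tested members, grouped by role, from limma on 3 LPS and 3 control libraries; dotted lines mark a 2-fold change. The 4 orange points had an unadjusted p under 0.05 and 0 passed the adjusted threshold.

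As a description of the same libraries, 8 inflammatory and interferon-stimulated genes picked with earlier results of these data known (MX1, ISG15, OAS2, IFI6, CCL2, ICAM1, SELE and CSF2) had log2 changes of 1.02 to 3.27, which, given that choice, is no independent check of the treatment. MX1 and ISG15 passed the adjusted threshold in limma, but no gene did with no filter, with the replicate block, without control 2 or without LPS 2. Summed protein-coding FPKM ran from 256257 to 264878 in LPS and from 256047 to 260730 in control libraries, and read depth is unknown. Over all annotated genes the sum was 427920 FPKM in control 3, against 467380 to 483345 FPKM in the other libraries. All 13 endothelial markers were tested and summed to 507 to 651 FPKM in LPS and 427 to 556 FPKM in control libraries. Of these, 12 had a log2 change above 0. At an unadjusted p under 0.05 in limma, 3 were higher and 1 lower with LPS (30.8%, against 10.4% of all tested genes). The groups did not overlap for 6 on the high side and 1 on the low side (53.8%, against 17.4%). Of 15 epithelial and A549 markers, 7 were tested, and the list summed to 103 to 126 FPKM in LPS and 141 to 153 FPKM in control libraries. Of these 7 epithelial and A549 markers, 5 were lower with LPS at an unadjusted p under 0.05 (71.4%, against 10.4% of all tested genes). The groups did not overlap for 6 (85.7%, against 17.4% of all tested genes), 5 on the low side and 1, KRT7, on the high side. KRT18 averaged 41.4 FPKM with LPS and 58.9 FPKM in controls, and KRT19 averaged 23.1 FPKM with LPS and 33.97 FPKM in controls; KRT8, AKR1C1 and CPS1 were also lower, and KRT7 had a positive change. CDH1, EPCAM, CLDN4, ESRP1, NKX2-1, SFTPB and SFTPC were each below 0.1 FPKM on average. Fibroblast and smooth muscle markers (12 of 14 tested) summed to 3919 to 4418 FPKM in LPS and 4028 to 4398 FPKM in control libraries. The largest were COL1A1, COL1A2 and COL3A1, averaging 1526, 1232 and 666 FPKM with LPS, above every endothelial marker listed. Of the 12 tested, 3 had an unadjusted p under 0.05 in limma, against 10.4% of all tested genes. PDGFRA and LUM were lower and THY1 was higher with LPS. The groups did not overlap for 4 (33.3%, against 17.4%), 1 on the high side and 3 on the low side. Of 8 leukocyte markers, 2 were tested. The part of these shifts in the results below was not tested, and in bulk RNA fewer cells of a type and less RNA per cell cannot be told apart.

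Levels of the members spanned more than the effects of LPS did. GAPDH, which oxidises glyceraldehyde phosphate, ranked 6 of 19755 protein-coding genes by mean FPKM, ALDOA 44 and ENO1 46, whereas the carbonic anhydrase CA9 ranked 11431. The 17 pathway enzymes made up 1.92%, 1.72% and 1.87% of summed protein-coding FPKM in LPS libraries 1 to 3, against 1.65%, 1.77% and 1.96% in control libraries 1 to 3. The 2 groups overlapped, with control 1 lowest and control 3 highest. Single libraries differed as well, in the members and in all tested genes. LPS 3 held the highest of the 6 values for 14 of 37 members (37.8%, against 25.7% of all tested genes). The median log2 deviation from the control mean was lowest in LPS 2, at −0.13 for the members and −0.05 for all tested genes.

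**Figure D2:**
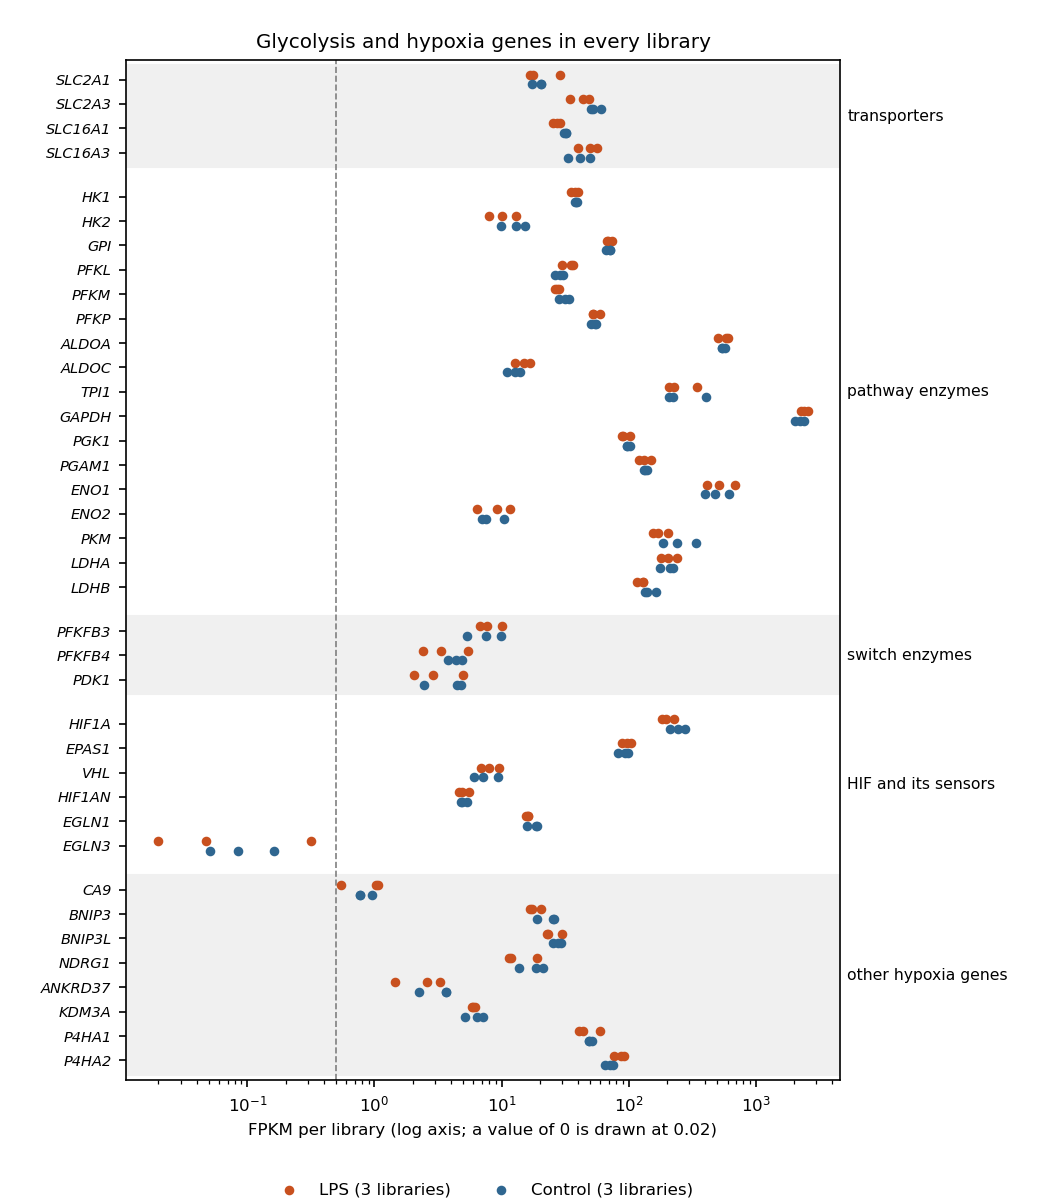
FPKM of the 38 members in each library (log x axis; a value of 0 is drawn at 0.02), LPS libraries in orange above control libraries in blue, grouped by role; the dashed line is the 0.5 FPKM minimum for testing. Levels run from EGLN3, under the minimum, to GAPDH, at 2020 to 2557 FPKM, and in most rows the LPS and control points interleave.

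Among the transporters, SLC2A3 brings glucose in with high affinity. SLC2A3 (chromosome 12, 7919230 to 7936187) was at 34.8, 43.6 and 49.2 FPKM in the LPS libraries, against 50.8, 52.6 and 61.0 FPKM in the control libraries. Every LPS value lay below every control value, with the highest LPS and the lowest control library close together. The log2 change was −0.37 (SE 0.14; unadjusted p under 0.05, limma adjusted p = 0.446). The change was −0.03 (limma adjusted p = 0.966) when only its coding transcript was counted, as described below.

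SLC2A1 is the widely expressed glucose carrier and a classical HIF target. SLC2A1 (chromosome 1, 42925375 to 42959176) was at 16.9, 17.8 and 29.04 FPKM with LPS, against 17.3, 20.5 and 20.4 FPKM in controls. LPS 3 stood above the other 5 libraries, which interleaved. The log2 change was 0.09 (SE 0.21; limma adjusted p = 0.909), and without LPS 3 it was −0.15.

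Lactate leaves or enters through monocarboxylate carriers. SLC16A1 (chromosome 1, 112911847 to 112996983), which carries lactate in both directions, was at 27.3, 29.1 and 25.5 FPKM with LPS, against 31.2, 32.4 and 32.4 FPKM in controls. The groups did not overlap and the control values were tightly spaced. The log2 change was −0.23 (SE 0.09; unadjusted p under 0.05, limma adjusted p = 0.460), and in coding transcripts alone it was also −0.23 (limma adjusted p = 0.455). SLC16A3, the carrier of glycolytic cells that mainly exports lactate, averaged 48.8 ± 8.19 FPKM with LPS and 41.3 ± 8.16 FPKM in controls (SD, n = 3 each), with overlapping groups and a limma adjusted p of 0.685. SLC16A3 overlaps CSNK1D (25.5 FPKM) on the genome, and the counting strand is not given in the sources used here.

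The hexokinases trap glucose as its phosphate. HK1 averaged 37.9 ± 2.32 FPKM with LPS and 38.6 ± 0.828 FPKM in controls. The inducible HK2 averaged 10.4 ± 2.56 FPKM with LPS and 12.7 ± 2.69 FPKM in controls (limma adjusted p = 0.694). GPI, which isomerises glucose phosphate, averaged 70.1 ± 3.52 FPKM with LPS and 69.9 ± 3.09 FPKM in controls.

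Phosphofructokinase is the committed step and is built from liver (PFKL), muscle (PFKM) and platelet (PFKP) type subunits. PFKM (chromosome 12, 48105139 to 48146404) was at 28.4, 27.5 and 26.5 FPKM with LPS, against 33.9, 28.5 and 31.6 FPKM in controls. The groups did not overlap, but LPS 1 and control 2 lay next to each other. The log2 change of PFKM was −0.19 (SE 0.10; limma adjusted p = 0.565). PFKL averaged 33.8 ± 3.61 FPKM with LPS and 28.7 ± 2.12 FPKM in controls, with a log2 change of 0.23 (SE 0.11; limma adjusted p = 0.535). PFKP, the most abundant subunit, averaged 54.9 ± 3.70 FPKM with LPS and 53.7 ± 2.47 FPKM in controls.

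The aldolases split fructose bisphosphate and TPI1 interconverts the resulting trioses. ALDOA averaged 563 ± 50.9 FPKM with LPS and 549.4 ± 18.03 FPKM in controls. ALDOC averaged 14.9 ± 1.99 FPKM with LPS and 12.6 ± 1.44 FPKM in controls, with a limma adjusted p of 0.609. TPI1 averaged 260 ± 74.5 FPKM with LPS and 278 ± 109 FPKM in controls, a spread made by 1 high library in each group.

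GAPDH is often taken as a reference transcript. GAPDH (chromosome 12, 6534512 to 6538374) was at 2557, 2266 and 2377 FPKM with LPS, against 2020, 2239 and 2415 FPKM in controls. LPS 1 was highest and control 1 lowest, and the groups overlapped. The log2 change was 0.11 (SE 0.11; limma adjusted p = 0.762), and it was −0.02 after quantile normalization. The overlapping gene AC006064.4 stood at 119 FPKM, and 62 numbered GAPDH pseudogenes summed to at most 8.84 FPKM in a library.

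The 4 enzymes between GAPDH and pyruvate kinase follow. PGK1, which makes the first ATP, averaged 94.1 ± 7.97 FPKM with LPS and 99.0 ± 3.35 FPKM in controls. The mutase PGAM1 averaged 134 ± 13.9 FPKM with LPS and 135 ± 3.67 FPKM in controls. The enolase ENO1 averaged 538 ± 134 FPKM with LPS and 499 ± 113 FPKM in controls. The neuronal-type enolase ENO2 averaged 9.10 ± 2.59 FPKM with LPS and 8.35 ± 1.90 FPKM in controls. The lowest limma adjusted p of these 4 was 0.815, for PGK1, and the groups overlapped in each.

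PKM makes pyruvate and the second ATP. PKM (chromosome 15, 72199029 to 72231822) was at 171, 155 and 204 FPKM with LPS, against 337, 188 and 239 FPKM in controls. Control 1 stood far above the other 5 libraries, and LPS 3 lay above control 2. The log2 change was −0.49 (SE 0.21; unadjusted p under 0.05, limma adjusted p = 0.479). Without control 1 it was −0.27 and no longer at an unadjusted p under 0.05.

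Lactate dehydrogenase is a tetramer of A and B subunits. LDHA (chromosome 11, 18394560 to 18408425) was at 205.5, 180.5 and 242 FPKM with LPS, against 178, 212 and 223 FPKM in controls. LPS 3 was highest and control 1 lowest, with full overlap and a log2 change of 0.03 (SE 0.14; limma adjusted p = 0.953). LDHB (chromosome 12, 21635342 to 21757857), the heart-type subunit, was at 129.9, 116 and 129.7 FPKM with LPS, against 135, 139 and 164 FPKM in controls. Every LPS library lay below every control library for LDHB, and the log2 change was −0.22 (SE 0.11; limma adjusted p = 0.530).

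The 3 switch enzymes were of low abundance. PFKFB3, which makes the allosteric activator of phosphofructokinase and drives glycolysis in sprouting endothelium, lies on chromosome 10 from 6144934 to 6254644. It was at 7.67, 6.71 and 10.2 FPKM with LPS, against 7.60, 9.95 and 5.31 FPKM in controls. The highest value was in LPS 3 and the lowest in control 3, and the groups overlapped (log2 change 0.12, SE 0.24; limma adjusted p = 0.896). PFKFB4, a related enzyme, averaged 3.74 ± 1.55 FPKM with LPS and 4.34 ± 0.557 FPKM in controls. PDK1, which restrains pyruvate dehydrogenase, averaged 3.32 ± 1.52 FPKM with LPS and 3.91 ± 1.28 FPKM in controls.

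Both HIF alpha subunits were abundant. HIF1A (chromosome 14, 61695513 to 61748259) was at 228, 198 and 182 FPKM with LPS, against 245, 210 and 279.5 FPKM in controls. Control 3 and control 1 were the 2 highest libraries, and LPS 1 lay above control 2. The log2 change of HIF1A was −0.27 (SE 0.14; limma adjusted p = 0.530), and its unadjusted p was under 0.05 when control 2 or LPS 1 was left out. HIF1A overlaps the antisense gene HIF1A-AS2 (7.53 FPKM). EPAS1 (chromosome 2, 46293667 to 46386697), the HIF alpha subunit first described in endothelium, was at 97.1, 89.0 and 104 FPKM with LPS, against 94.3, 99.1 and 82.8 FPKM in controls. LPS 3 was highest and control 3 lowest, the groups overlapped, and the log2 change was 0.07 (SE 0.11; limma adjusted p = 0.843).

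The genes that sense oxygen or dispose of HIF overlapped between the groups. VHL, the ubiquitin ligase subunit that recognises hydroxylated HIF, averaged 8.14 ± 1.30 FPKM with LPS and 7.51 ± 1.72 FPKM in controls. HIF1AN, the asparaginyl hydroxylase, averaged 5.05 ± 0.477 FPKM with LPS and 5.03 ± 0.268 FPKM in controls. EGLN1, the main prolyl hydroxylase, averaged 15.9 ± 0.224 FPKM with LPS and 17.8 ± 1.75 FPKM in controls (limma adjusted p = 0.682). EGLN3, a prolyl hydroxylase that hypoxia itself induces, was not tested. It was listed at 0.0475, 0 and 0.317 FPKM with LPS, against 0.163, 0.0513 and 0.0851 FPKM in controls, so the LPS libraries held both its lowest and its highest value.

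CA9, a carbonic anhydrase whose promoter is a strict HIF reporter, lay just above the testing minimum. CA9 (chromosome 9, 35673918 to 35681159) was at 1.07, 1.03 and 0.551 FPKM with LPS, against 0.769, 0.766 and 0.961 FPKM in controls. The lowest and the highest value were both in LPS libraries, and the log2 change was 0.04 (SE 0.20; limma adjusted p = 0.964).

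The mitophagy receptor BNIP3 averaged 18.2 ± 1.83 FPKM with LPS and 23.4 ± 3.91 FPKM in controls, with LPS 3 above control 1. Its log2 change was −0.34 (SE 0.15; limma adjusted p = 0.481). The related BNIP3L averaged 25.4 ± 4.04 FPKM with LPS and 27.6 ± 1.91 FPKM in controls. NDRG1, a stress-responsive hypoxia gene, averaged 14.2 ± 4.35 FPKM with LPS and 17.8 ± 3.76 FPKM in controls (log2 change −0.33, SE 0.23). ANKRD37 averaged 2.45 ± 0.928 FPKM with LPS and 3.19 ± 0.828 FPKM in controls (log2 change −0.35, SE 0.28). The histone demethylase KDM3A averaged 6.002 ± 0.166 FPKM with LPS and 6.22 ± 0.992 FPKM in controls.

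P4HA1 and P4HA2 are catalytic subunits of the collagen prolyl hydroxylase, which needs oxygen to stabilise collagen. P4HA2 (chromosome 5, 132191838 to 132295315), whose promoter without a core match is printed above, was at 91.2, 76.7 and 87.8 FPKM with LPS, against 75.3, 65.1 and 71.4 FPKM in controls. All 3 LPS values lay above all 3 control values, with LPS 2 and control 1 close together. The log2 change of P4HA2 was 0.27 (SE 0.11; unadjusted p under 0.05, limma adjusted p = 0.446), the largest positive change among the members. In coding transcripts alone it was also 0.27 (limma adjusted p = 0.461). PDLIM4 (38.6 FPKM) and P4HA2-AS1 (3.39 FPKM) overlap P4HA2. P4HA1 averaged 47.9 ± 10.0 FPKM with LPS and 49.7 ± 1.41 FPKM in controls, with LPS 3 highest and LPS 2 lowest.

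The count of members at an unadjusted p under 0.05 depended on which library was left out. Without LPS 3 there were 7 of 37 (SLC2A3, PFKL, PKM, PFKFB4, BNIP3, NDRG1 and P4HA1), against 10.05% of all genes tested in that fit. Without LPS 1 there was 1 (HIF1A; 8.61% of all genes), and without LPS 2 there were 2 (SLC16A1 and P4HA2; 10.04% of all genes). Without control 1 there were 3 (9.91% of all genes), without control 2 there were 2 (PKM and HIF1A; 8.67%) and without control 3 there were 0 (7.59%). Single changes moved too: that of PFKFB4 lay between −0.52 without LPS 3 and −0.01 without LPS 2, and that of SLC16A3 between 0.09 without control 1 and 0.38 without control 2. By limma none of them passed the adjusted threshold in any of these fits, and the lowest adjusted p of any member over all 17 alternatives was 0.308.

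Where a step has several genes, the share of each within its step compares libraries without the scale of the library. Of 11 such shares of summed FPKM, 4 did not overlap between the groups. No such shares were computed for other genes, so this count has no background. Shares of the same sum also depend on each other. PFKL made up 29.5%, 30.4% and 27.2% of phosphofructokinase FPKM with LPS, against 26.6%, 23.9% and 25.3% in controls. PFKM made up 22.9%, 23.9% and 24.3% with LPS, against 29.3%, 25.7% and 27.5% in controls. The liver-type share was thus higher and the muscle-type share lower in every LPS library, while PFKP held 47.3 ± 1.44% with LPS and 47.3 ± 3.14% in controls.

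The LDHA share of lactate dehydrogenase FPKM was 61.3%, 60.9% and 65.1% with LPS, against 56.8%, 60.4% and 57.7% in controls. The SLC2A3 share of the SLC2A1 and SLC2A3 sum was 67.3%, 71.0% and 62.9% with LPS, against 74.6%, 71.96% and 74.96% in controls. LPS 2 and control 2 almost met in both cases. Each of these 4 shares had an exact two-sided permutation p of 0.1, the smallest that 3 against 3 libraries can give, and 0.275 after Benjamini-Hochberg adjustment over the 11, so no share could pass 0.05. With each transcript weighted by its length, the LDHA shares overlapped (67.5 ± 2.14% with LPS and 65.2 ± 3.63% in controls) and the PFKL, PFKM and SLC2A3 shares did not. The ALDOA share, which overlapped in FPKM, then did not (96.95 ± 0.0722% with LPS and 97.3 ± 0.281% in controls). Hence 4 of 11 shares were without overlap on either scale. Both scales also count transcripts other than the coding ones, as described below, and shares of coding transcripts alone were not computed. Summed coding transcripts overlapped between groups for SLC2A3, PFKL (28.9 ± 10.5 FPKM with LPS, 20.6 ± 14.3 FPKM in controls) and LDHA (83.2 ± 39.9 FPKM with LPS, 68.35 ± 11.1 FPKM in controls). Those of PFKM did not (20.5 ± 4.22 FPKM with LPS, 28.8 ± 2.96 FPKM in controls).

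**Figure D3:**
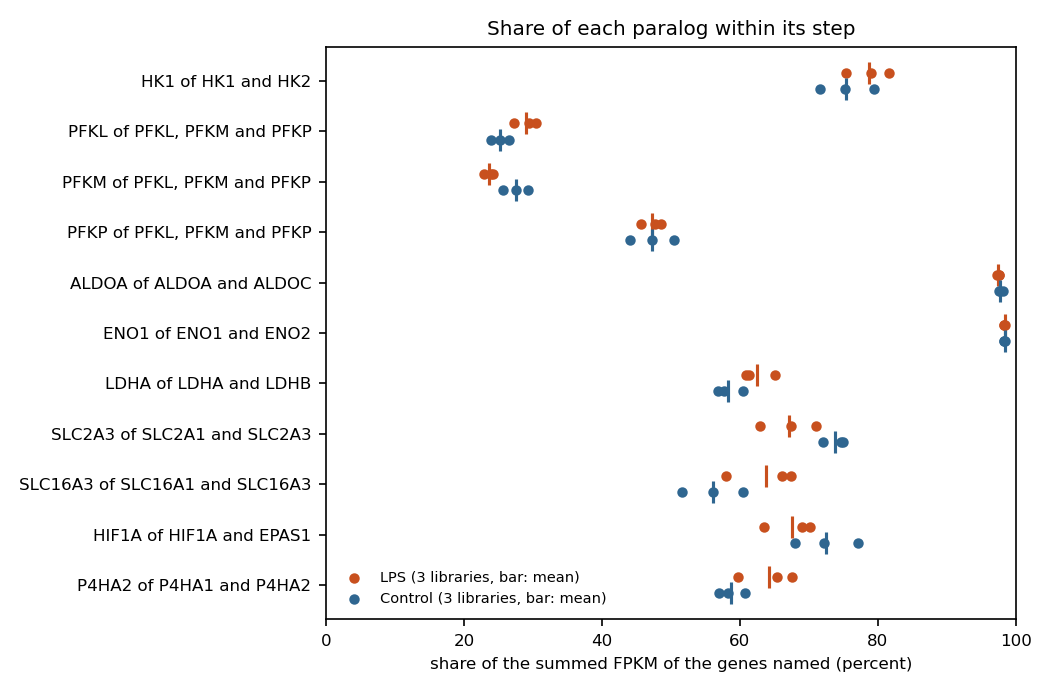
Share of each gene in the summed FPKM of its step (x axis, percent), 3 LPS libraries in orange above 3 control libraries in blue, with a bar at each mean. The PFKL and LDHA shares lie higher and the PFKM and SLC2A3 shares lower in every LPS library, and the other 7 rows overlap.

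Below the gene level, the deposited gene value equals the sum of its transcript values, and part of it lies in transcripts outside the protein-coding transcript table. Of the members' FPKM in those other transcripts, 97.5% was annotated as retained intron in GENCODE 29. For 14 of the 38 members they made up over 25% of the gene's FPKM, for example 63.4% for LDHA, 54.7% for GPI, 43.5% for GAPDH and 41.6% for SLC2A3. The leading transcript was the same in all 6 libraries for 21 tested members and differed between libraries for 16. HK1 belonged to the first kind, with HK1-202 at 37.0 ± 1.91 FPKM with LPS and 38.0 ± 0.896 FPKM in controls, close to the whole gene.

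For PKM the coding transcripts overlapped between groups. M2 transcripts, which carry the second exon printed above, summed to 101, 61.3 and 103 FPKM with LPS, against 65.5, 102.5 and 92.6 FPKM in controls. M1 transcripts summed to 31.5, 49.3 and 42.3 FPKM with LPS, against 56.7, 29.2 and 41.2 FPKM in controls. LPS 2 and control 1 held the 2 highest M1 and the 2 lowest M2 sums, and both forms overlapped between the groups. Among single M2 transcripts, PKM-202 averaged 88.4 ± 23.5 FPKM with LPS and 69.6 ± 48.5 FPKM in controls, and PKM-204 reached 51.6 FPKM in control 1 but stayed below 0.1 FPKM elsewhere. Among the M1 transcripts, PKM-216 averaged 29.97 ± 11.1 FPKM with LPS and 19.6 ± 8.05 FPKM in controls, and PKM-201 averaged 10.7 ± 3.39 FPKM with LPS and 7.16 ± 4.07 FPKM in controls. PKM-220, also M1, was at 0.359 ± 0.529 FPKM with LPS and 11.5 ± 16.6 FPKM in controls, carried by control 1.

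M2 made up 67.5 ± 10.8% of M1 plus M2 with LPS and 66.9 ± 12.3% in controls (SD, n = 3 each). Everything else assigned to PKM summed to 38.8, 44.3 and 58.3 FPKM with LPS, against 214, 56.2 and 105 FPKM in controls. Control 1 stood apart here, and most of its excess was the retained-intron transcript PKM-214, at 6.76, 10.6 and 33.5 FPKM with LPS, against 167, 29.4 and 64.3 FPKM in controls. The summed coding transcripts of PKM had a log2 change of −0.01 (SE 0.12; limma adjusted p = 0.979), where the whole gene had −0.49. Of the smaller retained-intron transcripts, PKM-212 averaged 11.8 ± 3.48 FPKM with LPS and 6.84 ± 0.920 FPKM in controls, and PKM-213 averaged 6.98 ± 1.42 FPKM with LPS and 5.54 ± 0.417 FPKM in controls.

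SLC2A3 divided in the same way. Its coding transcript SLC2A3-201 was at 24.1, 28.8 and 31.6 FPKM with LPS, against 26.8, 33.6 and 25.9 FPKM in controls, with full overlap. Its other transcripts summed to 10.8, 14.7 and 17.7 FPKM with LPS, against 24.1, 19.1 and 35.1 FPKM in controls. The separation of the groups at the gene level thus lay in the other transcripts, while for SLC16A1 and P4HA2 it lay in the coding ones.

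ENO1 and TPI1 changed their leading transcript between libraries of the same group. ENO1-201, which encodes the enzyme, was at 60.0, 503 and 665 FPKM with LPS, against 0.506, 20.1 and 555 FPKM in controls. The retained-intron transcript ENO1-203 was at 315, 5.29 and 6.73 FPKM with LPS, against 316, 363 and 53.0 FPKM in controls. LPS 1, control 1 and control 2 were thus assigned mainly to ENO1-203 and the other 3 libraries to ENO1-201, and ENO1-AS1 (22.7 FPKM) overlaps the gene. TPI1-210 was at 337.5 FPKM in LPS 1 and at 393 FPKM in control 3 and was listed at 0 in the other 4 libraries, where TPI1-201 lay between 138 and 197 FPKM. These were the libraries with the high TPI1 gene values, LPS 1 at 346 FPKM and control 3 at 403 FPKM, against 206 to 226 FPKM elsewhere.

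**Figure D4:**
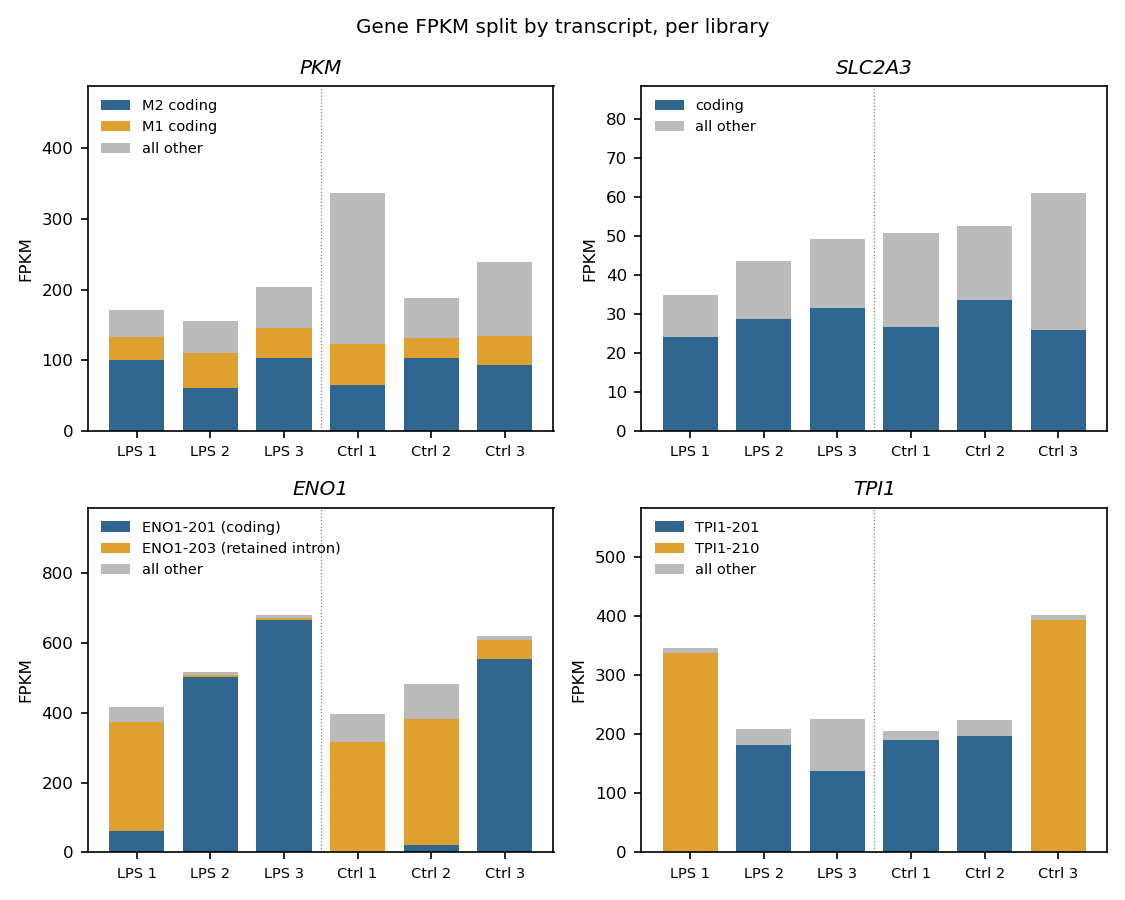
Gene FPKM (y axis) of PKM, SLC2A3, ENO1 and TPI1 in the 3 LPS and 3 control (Ctrl) libraries, stacked by transcript class. The coding parts of PKM and SLC2A3 overlap between groups while their other transcripts are larger in controls on average, and ENO1 and TPI1 switch between a pair of transcripts from library to library in both groups.

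Of 261 member transcripts in the protein-coding transcript table, 111 were tested and 0 passed the adjusted threshold in limma, beside 26 of 20563 transcripts (0.126%). At an unadjusted p under 0.05 there were 9 (8.11%), against 6.44% of all tested transcripts, and 12 (10.8%) did not overlap between groups, against 13.8%. Those of ALDOC went in opposite directions. ALDOC-203 was at 8.18, 3.81 and 6.54 FPKM with LPS, against 2.99, 0.657 and 0.703 FPKM in controls (log2 change 1.92, SE 0.53; limma adjusted p = 0.612). ALDOC-201 was at 6.52, 7.38 and 6.88 FPKM with LPS, against 9.04, 9.87 and 10.5 FPKM in controls (log2 change −0.47, SE 0.12; limma adjusted p = 0.558). In both the groups did not overlap, and the ALDOC gene total did overlap.

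P4HA2 showed the same opposition on a smaller scale. P4HA2-202 was at 37.9, 30.5 and 36.4 FPKM with LPS, against 18.6, 22.4 and 28.7 FPKM in controls, and P4HA2-203 at 1.68, 2.67 and 1.85 FPKM with LPS, against 8.95, 4.39 and 3.30 FPKM in controls. Neither pair of groups overlapped, with limma adjusted p values of 0.710 for P4HA2-202 and 0.715 for P4HA2-203. LDHA-220 was at 6.30, 4.49 and 9.25 FPKM with LPS, against 3.25, 2.39 and 2.504 FPKM in controls (log2 change 1.11, SE 0.28; limma adjusted p = 0.552).

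LDHA was divided over many transcripts. The retained-intron transcripts LDHA-216, LDHA-215 and LDHA-202 averaged 71.9 ± 24.9, 42.4 ± 14.0 and 6.17 ± 3.33 FPKM with LPS, and 41.9 ± 6.92, 17.9 ± 3.50 and 48.4 ± 38.8 FPKM in controls. The coding LDHA-205 averaged 27.0 ± 7.92 FPKM with LPS and 15.1 ± 4.47 FPKM in controls. LDHA-201, LDHA-203, LDHA-204 and LDHA-206 were each listed at 0 in at least 2 libraries. Smaller still, the retained-intron LDHA-211 averaged 5.04 ± 3.35 FPKM with LPS and 10.9 ± 4.59 FPKM in controls, and LDHA-223, annotated for nonsense-mediated decay, was at 40.6 FPKM in control 1 and listed at 0 elsewhere. Their sum with the rest gave a gene level that overlapped between the groups.

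For SLC16A3 the coding SLC16A3-214 was at 28.8, 25.5 and 27.9 FPKM with LPS, against 20.1, 24.3 and 18.4 FPKM in controls, without overlap (log2 change 0.39, SE 0.13; limma adjusted p = 0.729). SLC16A3-211 averaged 5.94 ± 2.44 FPKM with LPS and 7.83 ± 1.63 FPKM in controls, and the retained-intron SLC16A3-208 averaged 4.77 ± 0.610 FPKM with LPS and 5.69 ± 1.68 FPKM in controls. No PFKFB3 transcript reached a mean of 5 FPKM, and its leading transcript was 1 of 5 depending on the library.

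Neighbouring pathways were read from the same fit, and in the 6 lists described here 0 genes passed the adjusted threshold in limma. Of 17 tested other glycolysis genes, 1 was higher and 2 were lower at an unadjusted p under 0.05 (17.6% in all, against 10.4% of all tested genes). The glucose carrier SLC2A6, known from activated macrophages, averaged 15.03 ± 2.15 FPKM with LPS and 10.2 ± 0.922 FPKM in controls (log2 change 0.53, SE 0.14; limma adjusted p = 0.274). GALM, which interconverts sugar anomers, averaged 0.714 ± 0.170 FPKM with LPS and 1.42 ± 0.101 FPKM in controls (log2 change −0.67, SE 0.16). SLC16A7, a high-affinity monocarboxylate carrier, averaged 2.86 ± 0.209 FPKM with LPS and 3.94 ± 0.673 FPKM in controls (log2 change −0.40, SE 0.15).

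Of 13 tested genes for the fate of pyruvate, 1 was higher and 2 were lower at an unadjusted p under 0.05 (23.1%, against 10.4% of all tested genes). The groups did not overlap for 7 (53.8%, against 17.4%). PDP1, the phosphatase that activates pyruvate dehydrogenase, was at 21.1, 10.7 and 24.6 FPKM with LPS, against 3.64, 6.85 and 3.78 FPKM in controls. Every LPS library lay above every control library, with a log2 change of 1.85 (SE 0.34; limma adjusted p = 0.173), larger than that of any member. PDPR, the regulatory subunit of that phosphatase, averaged 5.48 ± 0.969 FPKM with LPS and 8.26 ± 1.09 FPKM in controls (log2 change −0.55, SE 0.16). PC, pyruvate carboxylase, averaged 6.71 ± 1.34 FPKM with LPS and 9.38 ± 0.976 FPKM in controls (log2 change −0.47, SE 0.16).

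Of 7 pentose phosphate pathway genes 0 had an unadjusted p under 0.05 in limma, and of 20 citric acid cycle genes 1 did, lower with LPS, against 10.4% of all tested genes. It was SUCLG2, a succinate-CoA ligase subunit, at 16.3 ± 0.224 FPKM with LPS and 19.8 ± 1.99 FPKM in controls (log2 change −0.27, SE 0.11). Of 20 other HIF regulators 2 were lower at an unadjusted p under 0.05, a share near that 10.4%. CITED2, which competes with HIF for its coactivators, averaged 53.5 ± 12.0 FPKM with LPS and 71.6 ± 2.29 FPKM in controls (log2 change −0.44, SE 0.15). RACK1, a ribosomal scaffold that promotes oxygen-independent HIF turnover, averaged 244 ± 5.57 FPKM with LPS and 299 ± 32.7 FPKM in controls (log2 change −0.29, SE 0.10).

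Of 42 other HIF targets 2 were higher and 3 lower at an unadjusted p under 0.05 (11.9%, against 10.4% of all tested genes). The median log2 change of the list was −0.12, with 13 genes above 0 (47.8% of all tested genes) and 29 below. The groups did not overlap for 10 (23.8%, against 17.4%), 3 on the high side and 7 on the low side. The vasoconstrictor EDN1, which inflammatory signals also induce, averaged 45.5 ± 3.86 FPKM with LPS and 31.8 ± 5.54 FPKM in controls (log2 change 0.52, SE 0.14; limma adjusted p = 0.299). The glycoprotein hormone STC1 averaged 3.92 ± 0.744 FPKM with LPS and 6.82 ± 1.48 FPKM in controls (log2 change −0.72, SE 0.20). HILPDA, a lipid droplet protein, averaged 5.42 ± 0.457 FPKM with LPS and 7.33 ± 0.554 FPKM in controls (log2 change −0.40, SE 0.12). In each of these 3 genes the groups did not overlap, and they pointed in both directions.

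**Figure D5:**
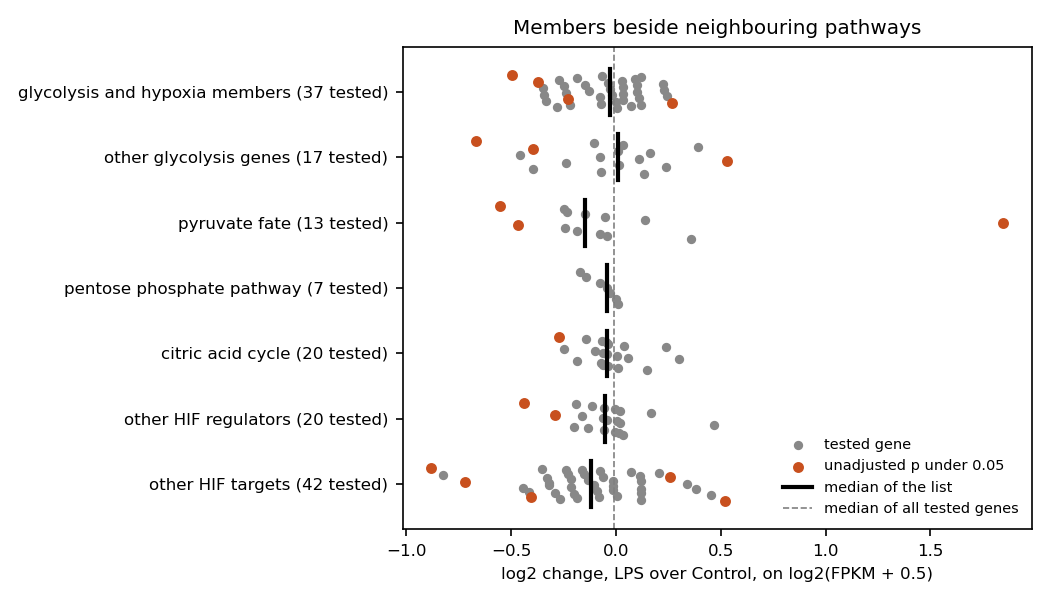
Log2 change (x axis, LPS over control) of every tested gene in the member set and 6 neighbouring lists; black bars are list medians, the dashed line is the median of all tested genes (−0.01), and orange points had an unadjusted p under 0.05. The member changes lie between −0.49 and 0.27, and PDP1 at 1.85 is the farthest point.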

How the data were processed

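RNA-seq values were available as FPKM for 3 LPS and 3 control libraries. The authors deposited these FPKM values per gene and per transcript, 1 column per library; the submitters' processing notes list HISAT2 and StringTie but no versions. Neither options nor counting strand is given in the sources used here. Those notes name a mouse build, mm9, while the tables carry human Ensembl identifiers with GRCh38 coordinates, which are used here. FPKM holds no read depth, so no counting interval can be given.

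Genes and transcripts averaging 0.5 FPKM or more were log-transformed as log2(FPKM + 0.5) and tested in limma 3.58.1 (R 4.3.3; group as the single term, eBayes with trend, two-sided, Benjamini-Hochberg adjustment over the whole table, threshold 0.05). This scale understates changes of low genes. Shares and exact permutation tests used Python 3.11.15, pandas 2.3.3 and scipy 1.17.1. Transcript types, lengths and the PKM exons came from GENCODE 29, promoters from RefSeq. The procedure was run on simulated data with known changes larger than that of any member. That run does not measure how well changes as small as those of the members are found.

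The members and lists were chosen with earlier results of these data known. Every member is given; values per library are given for those at an unadjusted p under 0.05, those without overlap, and 8 preset genes. Of each other list up to 3 genes at an unadjusted p under 0.05 are named, and of transcripts up to 5, plus those with a mean of at least 5 FPKM of PKM, HK1, LDHA, PFKFB3 and SLC16A3. The remarks on TPI1, ENO1, PKM-214, SLC2A3-201, EGLN3 and single libraries were chosen after values were seen. For PKM all transcripts with either exon were also summed. 1 gene of the pentose phosphate list was not analysed here. Alternatives were pseudocounts of 0.1 and 1, no filter or a minimum of 1 FPKM, median-of-ratios rescaling, quantile normalization, a replicate block, library weights, robust eBayes and leaving out each library. Length-weighted sums and sums of coding transcripts were chosen after seeing the data.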

Additional observations from a re-analysis of the deposited data

How the results depend on the processing

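No member passed the adjusted threshold in limma under any of the 17 alternatives run. At an unadjusted p under 0.05 there were 0 to 7 members, against 7.59% to 12.02% of all genes tested in those fits. The median log2 change of the members stayed between −0.09 and 0.02 when each library was left out. Of all protein-coding genes, 7 passed; the count was 0 with no filter (1563 genes at an unadjusted p under 0.05), 0 with the replicate block (1451 at an unadjusted p under 0.05) and 2 with coding transcripts summed per gene, and leaving out single libraries gave 0 to 8. Leaving out single libraries gave 0 to 2 member transcripts past the threshold: LDHA-203 and ALDOA-202 without control 1, and LDHA-204 without LPS 1, all listed at 0 in at least 2 libraries. The cause of these differences was not tested.

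The labels give replicate numbers but do not say whether same-numbered libraries belong together. Deviations of same-numbered libraries correlated at 0.0175 to 0.105, and 5 of 6 libraries correlated best with their own number. Whether they were paired is not known. With the replicate block 0 members passed in limma. At an unadjusted p under 0.05 there were 4 members, against 12.02% of all tested genes in that fit. They were SLC2A3, PKM, P4HA2 and BNIP3, so that BNIP3 took the place of SLC16A1.

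Of 628 recomputed member changes, 620 moved by less than the replicate SD. Of the other 8, 7 came from coding transcripts alone: SLC2A3 −0.03, PKM −0.01, GPI 0.48, PFKL 0.82, PFKM −0.50, GAPDH 0.56 and ENO1 2.44. The remaining one was GAPDH at −0.02 after quantile normalization. In 19 members the sign changed at least once, but among the 15 with a change of at least 0.2 either way this held for PDK1 only (0.02 without LPS 2). FPKM without depth, 3 libraries a group and uncertain assignment among transcripts, pseudogenes and overlapping genes (23 members overlap another gene of at least 0.5 FPKM) limit what small changes can be read. Among tested members, numbered pseudogenes of BNIP3 summed to 9.96% of its FPKM, of TPI1 to 4.95% and of PGAM1 to 4.44%. For EGLN3, which was not tested, 1 numbered pseudogene averaged 0.416 FPKM, above the gene itself at 0.111 FPKM.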
